A study of Mus musculus with 6 samples.

Results

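The genes described here encode glucose transporters, glycolytic enzymes and parts of the response to low oxygen, as expressed in lung endothelial cells (ECs). The list held 36 genes chosen by name, each read through the brightest of the probe sets that carried its symbol alone, and 33 of them had one among the 18194 genes measured in this way. Expression of Gpi1 and Eno1 was not analysed here, and Bnip3l was left out because each of its 3 probe sets also carried the symbol of another gene.

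Gene expression was measured in ECs of NSG mice, an immunodeficient strain, aged 6 to 8 weeks, whose lungs carried metastases of MDA231-LM2 cells, a subline of human MDA-MB-231 breast cancer cells with a high capacity for lung metastasis. These cells carried a control hairpin (shControl) or one that targets TNC (shTNC), the gene for the matrix glycoprotein tenascin C, and lungs were collected 20 days after intravenous injection, a time point given in the labels as 3 weeks. ECs were sorted from whole lungs as CD31-positive cells after removal of cells carrying CD45, CD11b, EpCAM, CD140a, CD140b or GFP, and each group had 3 samples with 1 array each. The hairpin acted on the human gene in cancer cells that the sort removed, so no probe set on these mouse arrays checks the knockdown, and mice with no cancer cells were not analysed here. In bulk samples of this kind, a lower share of some ECs and less RNA per cell cannot be told apart. The study reported that TNC knockdown reduced lung colonisation by these cells. Tumour burden in the mice of these arrays was not analysed here, so its part and that of TNC in any difference cannot be told apart.

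Glycolysis splits glucose into pyruvate and yields ATP without oxygen, and ECs are known to draw much of their ATP from it even when oxygen is plentiful. Hypoxia-inducible factors (HIFs) are transcription factors whose alpha subunits, encoded by Hif1a and Epas1, are hydroxylated and degraded when oxygen is present and accumulate when it is scarce. They bind a short core sequence in DNA, written ACGTG or GCGTG, and are known to activate many genes of glucose uptake, glycolysis and survival under low oxygen, among them Slc2a1, Ldha, Pdk1 and Bnip3.

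Promoter sequences show where such cores lie in the genes that the values below turn on. In RefSeq windows of 250 bases directly before annotated gene starts (build GRCm38.p6), 37 of 48 windows of the list's genes held at least 1 core on either strand, or 77.1%, against 38.6% of all 32851 windows. By gene, 29 of the 32 list genes matched in RefSeq held a core in at least 1 window, or 90.6%, against 41.5% of 27025 genes. Slc2a3 was among the list genes without a window, while Gpi1 and Eno1, without expression values here, were among those with windows. The list's genes had 1.5 windows each against 1.22 over all genes, which gives more places for a match, and the list was chosen in part for known HIF targets. The list's windows were also richer in G and C, with a median of 62.8% against 52.4%. The part of base composition and of the number of windows in the higher shares was not tested, and a match of 5 bases is a description and not a bound site. The hexamer CACGTG holds a core on both strands and is also the E-box that other factors recognise. The windows below belong to the 4 genes whose groups did not overlap, where they held a core, and to the 2 genes with the most cores, 5 each, a choice made after the values were seen. Each reads 5′ to 3′ on the strand of the gene and ends at the base before its start, and capitals mark the cores, which appear as CACGT or CACGC where the core lies on the opposite strand.
Slc2a1: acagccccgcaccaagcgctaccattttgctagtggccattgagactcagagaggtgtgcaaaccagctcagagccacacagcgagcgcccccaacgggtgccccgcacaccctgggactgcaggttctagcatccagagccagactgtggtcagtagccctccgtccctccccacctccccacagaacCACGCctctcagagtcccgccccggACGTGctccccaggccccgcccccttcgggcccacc
Hk1: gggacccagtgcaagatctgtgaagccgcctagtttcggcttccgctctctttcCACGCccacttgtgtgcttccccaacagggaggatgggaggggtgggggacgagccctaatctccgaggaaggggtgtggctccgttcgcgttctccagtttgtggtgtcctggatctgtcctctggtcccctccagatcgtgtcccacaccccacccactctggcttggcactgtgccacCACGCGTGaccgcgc
Pkm: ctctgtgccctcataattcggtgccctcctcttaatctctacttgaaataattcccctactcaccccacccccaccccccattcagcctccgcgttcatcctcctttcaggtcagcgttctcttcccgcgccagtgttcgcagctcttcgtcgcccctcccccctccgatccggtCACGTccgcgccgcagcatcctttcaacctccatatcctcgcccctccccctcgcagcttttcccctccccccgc
Ldha: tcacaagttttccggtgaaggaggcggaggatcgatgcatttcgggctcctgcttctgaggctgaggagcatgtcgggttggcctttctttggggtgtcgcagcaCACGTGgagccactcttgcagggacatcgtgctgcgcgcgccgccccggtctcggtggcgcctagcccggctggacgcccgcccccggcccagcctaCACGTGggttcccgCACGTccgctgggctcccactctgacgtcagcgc
Bnip3: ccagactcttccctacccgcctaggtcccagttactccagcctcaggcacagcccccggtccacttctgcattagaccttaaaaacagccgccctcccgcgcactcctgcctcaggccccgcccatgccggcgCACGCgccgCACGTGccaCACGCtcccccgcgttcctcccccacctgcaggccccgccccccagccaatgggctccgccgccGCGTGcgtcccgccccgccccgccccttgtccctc
Kdm3a: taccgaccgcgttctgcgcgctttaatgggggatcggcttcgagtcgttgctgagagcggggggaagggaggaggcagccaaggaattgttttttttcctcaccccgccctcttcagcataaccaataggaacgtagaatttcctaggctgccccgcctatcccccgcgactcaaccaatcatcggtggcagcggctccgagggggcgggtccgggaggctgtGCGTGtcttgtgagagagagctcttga
The Slc2a1 window lies at chr4:119108495-119108744 on the plus strand and holds 2 cores, 61 and 36 bases before the start. The Hk1 window, at chr10:62340422-62340671 on the minus strand, holds 3 cores, of which 2 overlap, and the Kdm3a window, at chr6:71632918-71633167 on the minus strand, holds 1. The Pkm window, at chr9:59656977-59657226 on the plus strand, holds 1 core, on the opposite strand. Other annotated starts of Hk1, Pkm and Kdm3a have windows that held none. The 5 cores of Ldha, at chr7:46845554-46845803 on the plus strand, include 2 CACGTG hexamers, and those of Bnip3, at chr7:138909507-138909756 on the minus strand, include 1.

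Across the list, no gene passed the test between the groups, and the 2 with the largest values in size were the glucose transporters, with Slc2a1 at -0.44 and Slc2a3 at 0.41. Of the 33 genes, 20 were lower and 13 higher in shTNC by their mean, beside 10602 lower and 7592 higher of all 18194 genes. The median difference (shTNC minus shControl) of the list was -0.037 on the log2 scale, against -0.030 over all genes. The difference of 31 genes lay within 0.25 in either direction, or 1.19-fold, beside 85.8% of all genes. The 95% interval of 27 lay within 0.5, or 1.41-fold, beside 80.0% of all genes. None passed an adjusted p of 0.05 in limma, where the smallest adjusted p of the list was 0.266, and over all 45101 probe sets 0, or 0.0%, passed at that level, with a smallest adjusted p of 0.126. None passed the thresholds of the study (p below 0.05 unadjusted and below 0.25 adjusted, and over 0.75 in log2 difference), which 82 probe sets, or 0.182%, passed.

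At an unadjusted p under 0.05, 1 list gene was lower (Slc2a1) and 1 higher (Slc2a3). Over all genes, 7.12% were lower and 4.54% higher at that level, so the list's 1 of 33 in each direction did not exceed this background. The 3 arrays of one group lay wholly below those of the other for 3 genes lower in shTNC (Slc2a1, Hk1 and Pkm) and 1 higher (Kdm3a), where 12.4% of all genes were separate and lower and 7.36% separate and higher. Here too the list did not exceed the share over all genes.

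**Figure D1:**
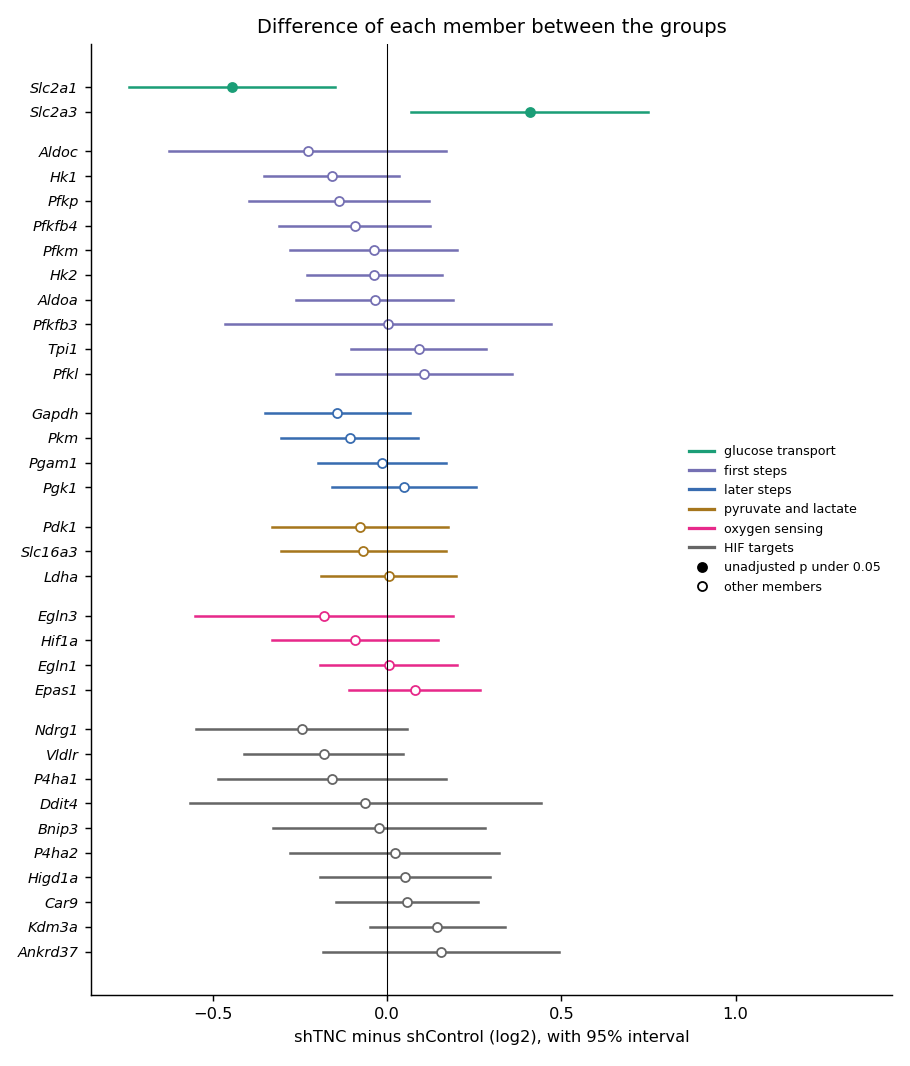
Difference between shTNC and shControl (log2, x axis) for the 33 measured genes, grouped by role, with the 95% interval from limma as a line and filled points for an unadjusted p under 0.05. Only the intervals of Slc2a1 and Slc2a3 leave out 0, and 31 of 33 points lie within 0.25 of it.

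Glucose enters ECs through facilitative transporters, of which Slc2a1 encodes the main one of endothelium and Slc2a3 a high-affinity one best known from neurons. Slc2a1 (1426599_a_at) had levels of 10.83, 11.00 and 10.94 in shControl replicates 1 to 3 and of 10.65, 10.58 and 10.21 in shTNC replicates 1 to 3. All shTNC arrays were below all shControl arrays, and shTNC replicate 3 was the lowest by a wide margin. The difference was -0.44 ± 0.13 (SE, n = 3 per group; 95% interval -0.74 to -0.15), a 1.36-fold lower level, with an unadjusted p of 0.0084 and an adjusted p of 0.266 in limma. Its other 2 probe sets differed by -0.35 ± 0.12 each, and their groups did not overlap either.

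Slc2a3 (1421924_at) had levels of 7.78, 7.63 and 7.56 in shControl and of 7.75, 8.14 and 8.32 in shTNC. Replicates 2 and 3 of shTNC were above every shControl array, while shTNC replicate 1 lay within the shControl range, so the groups overlapped. The difference was 0.41 ± 0.15 (SE, n = 3 per group; 95% interval 0.07 to 0.75), with an unadjusted p of 0.024 and an adjusted p of 0.319. The unadjusted p passed 0.05 in only 2 of the 6 fits that each left out 1 array, with differences from 0.28 to 0.57. It missed that level when replicate 2 or 3 of either group was left out. Of its other probe sets, those at 0.43 ± 0.14 and 0.32 ± 0.12 had groups that did not overlap, and the remaining one differed by -0.015 ± 0.18 near background. Background was set at 7.48, the 95th percentile of the mean levels of olfactory receptor probe sets, so the Slc2a3 levels were close to it in shControl.

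The array with the lowest Slc2a1, shTNC replicate 3, had the highest Slc2a3, and shControl replicate 2 had the highest Slc2a1.

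**Figure D2:**
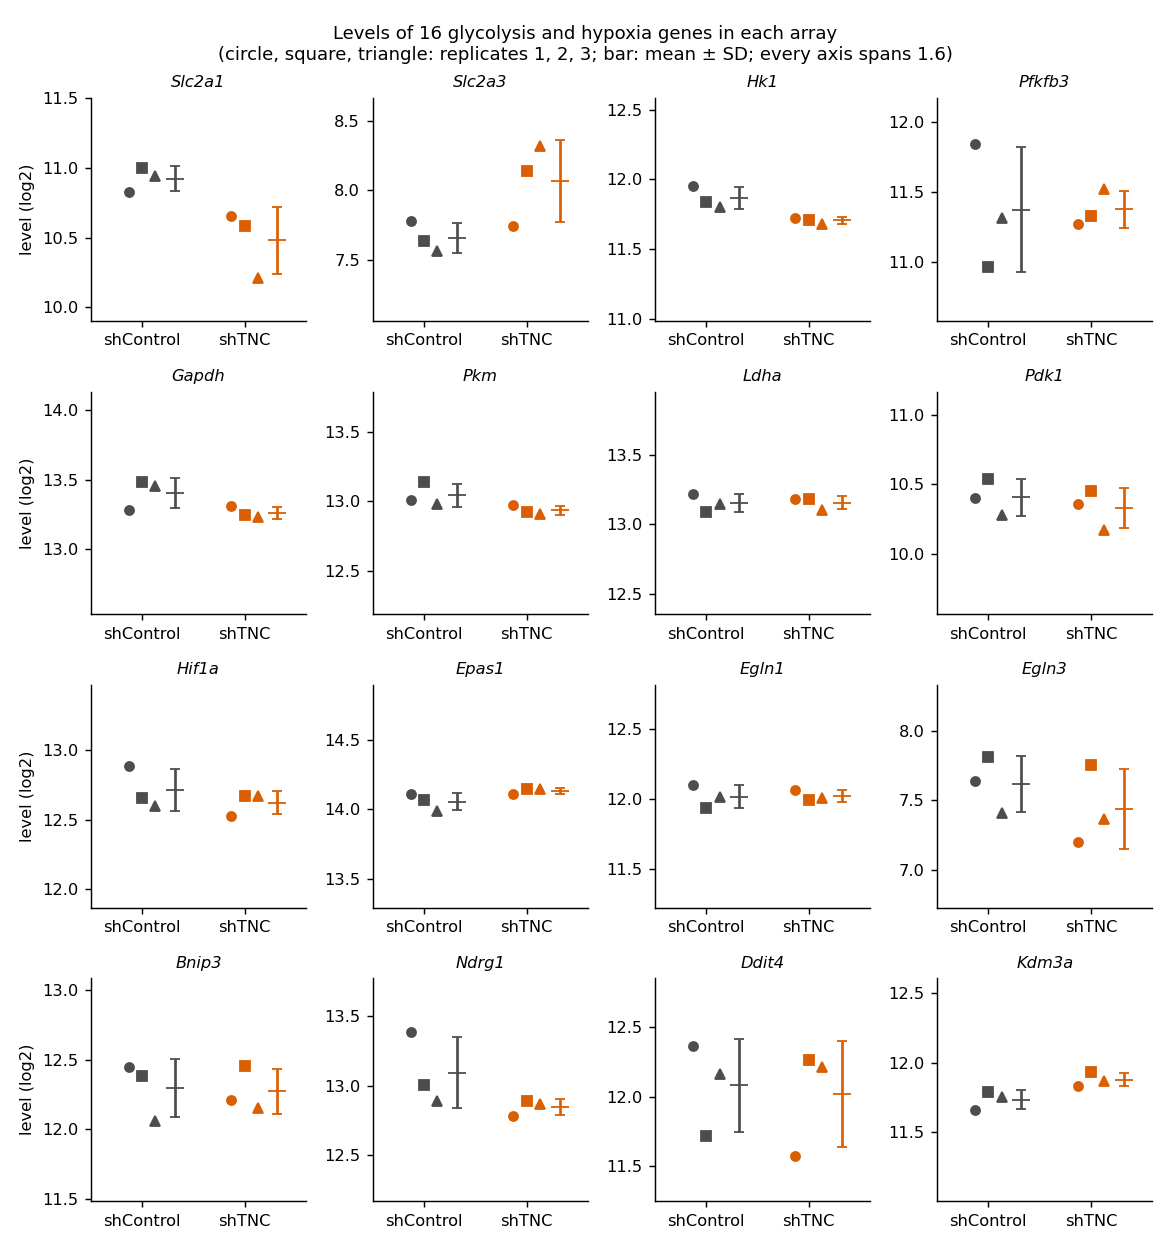
Level (log2, y axis) of 16 list genes in each array, with circles, squares and triangles for replicates 1, 2 and 3 and bars for the mean ± SD of 3 arrays per group. Every axis spans 1.6 log2 units, and the clearest separation between groups is that of Slc2a1.

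The first steps of glycolysis, from hexokinase to triosephosphate isomerase, spend ATP to phosphorylate and split glucose, and their 10 measured genes had a median difference of -0.037, with 7 lower and 3 higher. Hk1, the broadly expressed hexokinase (1420901_a_at), had levels of 11.95, 11.84 and 11.80 in shControl and of 11.73, 11.71 and 11.68 in shTNC. The groups did not overlap, yet the gap between them was smaller than the range within shControl. The difference was -0.16 ± 0.08 (SE) with an adjusted p of 0.463, and a second probe set of Hk1 differed the other way by 0.11 ± 0.10. Hk2, the inducible hexokinase and a HIF target, was at a level close to background and differed by -0.037 ± 0.08.

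Phosphofructokinase commits glucose to glycolysis, and the differences of its liver, muscle and platelet forms were 0.10 ± 0.11 for Pfkl, -0.038 ± 0.10 for Pfkm and -0.14 ± 0.11 for Pfkp. Pfkfb3 makes the allosteric activator of phosphofructokinase and is known as a driver of glycolysis in sprouting ECs. Its levels (1416432_at) were 11.85, 10.96 and 11.31 in shControl and 11.27, 11.33 and 11.52 in shTNC. The shControl arrays enclosed all shTNC arrays, with replicate 1 the highest and replicate 2 the lowest of the 6. The difference was 0.0025 ± 0.20 (SE; 95% interval -0.47 to 0.47), so a sizeable difference in either direction was within the error. Pfkfb4, a related enzyme and HIF target, differed by -0.094 ± 0.09.

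Aldolase cuts the phosphorylated sugar into trioses, which Tpi1 interconverts. Aldoa, the main form outside liver and brain, differed by -0.036 ± 0.10, but its 5 probe sets did not share a direction. Groups did not overlap for probe sets at 0.08 ± 0.08 and 0.11 ± 0.08 in the higher direction and for 1 at -0.38 ± 0.15 in the lower. Aldoc, the form typical of brain, differed by -0.23 ± 0.17 and varied more within shControl, from 7.96 to 8.62, than between the groups. Tpi1 differed by 0.09 ± 0.08.

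The later steps recover ATP, and the 4 measured genes had a median difference of -0.061, with 3 lower and 1 higher. Gapdh, the glycolytic dehydrogenase often used as a reference gene, had levels of 13.28, 13.48 and 13.45 in shControl and of 13.31, 13.24 and 13.23 in shTNC. Replicates 2 and 3 of shControl were the highest of the 6 arrays, while replicate 1 lay within the shTNC range. The difference was -0.14 ± 0.09 (SE) with an adjusted p of 0.532, and the probe sets for the middle and 5′ part of the transcript differed by -0.13 ± 0.09 each.

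Pkm, which encodes pyruvate kinase, had levels of 13.01, 13.14 and 12.98 in shControl and of 12.97, 12.92 and 12.91 in shTNC. The groups were separate only by a hair, since the lowest shControl and the highest shTNC array nearly touched. The difference was -0.11 ± 0.09 with an adjusted p of 0.626. Pgk1, phosphoglycerate kinase and a HIF target, differed by 0.048 ± 0.09 and Pgam1, phosphoglycerate mutase, by -0.015 ± 0.08.

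At the fate of pyruvate, Ldha encodes the lactate dehydrogenase subunit that favours lactate, Pdk1 a kinase that keeps pyruvate out of mitochondria, and Slc16a3 a lactate exporter. Ldha had levels of 13.22, 13.09 and 13.15 in shControl and of 13.18, 13.19 and 13.10 in shTNC. The groups overlapped fully. The difference was 0.0040 ± 0.08 (SE) with a 95% interval from -0.19 to 0.20.

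Pdk1 (1423748_at) had levels of 10.40, 10.54 and 10.28 in shControl and of 10.36, 10.45 and 10.17 in shTNC. Replicate 3 was the lowest array of each group, and the difference of -0.078 ± 0.11 had an adjusted p of 0.798. The remaining probe sets of Pdk1 differed by 0.040 ± 0.16, 0.32 ± 0.14 and 0.24 ± 0.08, and the groups of the last did not overlap. Slc16a3 differed by -0.069 ± 0.10, and the 3 genes of this step had a median of -0.069.

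Oxygen is sensed by prolyl hydroxylases such as those encoded by Egln1 and Egln3, which mark the HIF alpha subunits for degradation, so HIF activity is set largely at the protein level, which these arrays do not measure. Hif1a (1448183_a_at) had levels of 12.89, 12.66 and 12.60 in shControl and of 12.53, 12.67 and 12.67 in shTNC. Apart from shControl replicate 1, the highest, and shTNC replicate 1, the lowest, the arrays lay close together, and the difference was -0.093 ± 0.10 (SE). Its other probe sets differed by 0.25 ± 0.09, with groups that did not overlap, 0.048 ± 0.15 and -0.081 ± 0.19.

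Epas1, the HIF alpha subunit most typical of endothelium (1435436_at), had levels of 14.11, 14.06 and 13.99 in shControl and of 14.11, 14.15 and 14.15 in shTNC. The groups touched at shControl replicate 1 and shTNC replicate 1, and the difference was 0.079 ± 0.08. A second probe set (1449888_at) differed by 0.24 ± 0.08 with an unadjusted p of 0.018, and its groups did not overlap.

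Egln1 (1423785_at) had levels of 12.10, 11.94 and 12.02 in shControl and of 12.07, 11.99 and 12.01 in shTNC, which overlapped fully. The difference was 0.0041 ± 0.09. Its second, dimmer probe set (1451110_at) differed by -0.35 ± 0.09 with an unadjusted p of 0.0036, and all shTNC arrays were below all shControl arrays. Egln3, itself a HIF target, had levels of 7.64, 7.81 and 7.41 in shControl and of 7.20, 7.75 and 7.36 in shTNC, at or near background. The groups overlapped, with replicate 2 the highest in each, and the difference was -0.18 ± 0.16. A second probe set near background (1418648_at) differed the other way, by 0.34 ± 0.09, with an unadjusted p of 0.0049 and groups that did not overlap. The 4 genes of oxygen sensing had a median difference of -0.045.

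HIF targets outside glycolysis serve mitophagy, collagen modification, pH control and growth restraint, and their 10 measured genes had a median difference of -0.0013, with 5 lower and 5 higher. Bnip3, a mitophagy receptor, had levels of 12.45, 12.38 and 12.06 in shControl and of 12.21, 12.45 and 12.15 in shTNC. The highest array of each group had nearly the same level, the lowest of the 6 was of shControl, and the difference was -0.024 ± 0.13 (SE). Ddit4, an inhibitor of mTORC1 that also responds to glucocorticoids and other stress, had levels of 12.37, 11.72 and 12.16 in shControl and of 11.58, 12.27 and 12.21 in shTNC. Each group held 1 low array, shControl replicate 2 and shTNC replicate 1, and with a difference of -0.063 ± 0.22 the gene had the widest interval of the list.

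Kdm3a, a histone demethylase induced by HIFs, had levels of 11.66, 11.79 and 11.75 in shControl and of 11.83, 11.93 and 11.87 in shTNC. All shTNC arrays were above all shControl arrays by a narrow margin, and the difference was 0.14 ± 0.08 (SE) with an adjusted p of 0.503. Ndrg1, a stress-responsive gene linked to growth arrest (1420760_s_at), had levels of 13.38, 13.01 and 12.89 in shControl and of 12.78, 12.89 and 12.87 in shTNC. Only shControl replicate 1 stood well above the others, and the difference was -0.25 ± 0.13 with an adjusted p of 0.467. Without that array it was -0.10, and without shControl replicate 3 it was -0.35. All 5 probe sets of Ndrg1 were lower in shTNC, by -0.24 to -0.55, and the one at -0.55 ± 0.14 (1450977_s_at) had groups that did not overlap and an unadjusted p of 0.0049.

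P4ha1 and P4ha2 encode the alpha subunits of the enzyme that hydroxylates collagen, and they differed by -0.16 ± 0.14 and 0.022 ± 0.13. A second, dimmer probe set of P4ha1 (1426519_at) differed by -0.41 ± 0.11 with groups that did not overlap. Vldlr, a lipoprotein receptor, differed by -0.18 ± 0.10, and Higd1a, a mitochondrial protein, by 0.050 ± 0.11. Ankrd37, an ankyrin repeat protein and HIF target, differed by 0.15 ± 0.15. Car9, a carbonic anhydrase that is among the most widely used markers of hypoxic tumour cells, lay near background in all 6 arrays, between 6.67 and 6.87.

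Probe sets of one gene often differed from each other. Of the 33 genes, 20 had several single-symbol probe sets and 18 had several above background, and in 8 of these 18 the probe sets differed in sign. They lay on the same side of 0 for the others, Slc2a1, Slc2a3, Ndrg1 and Gapdh among them. Probe sets of a gene can read different transcript ends, and which of them follows the whole transcript was not tested.

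**Figure D3:**
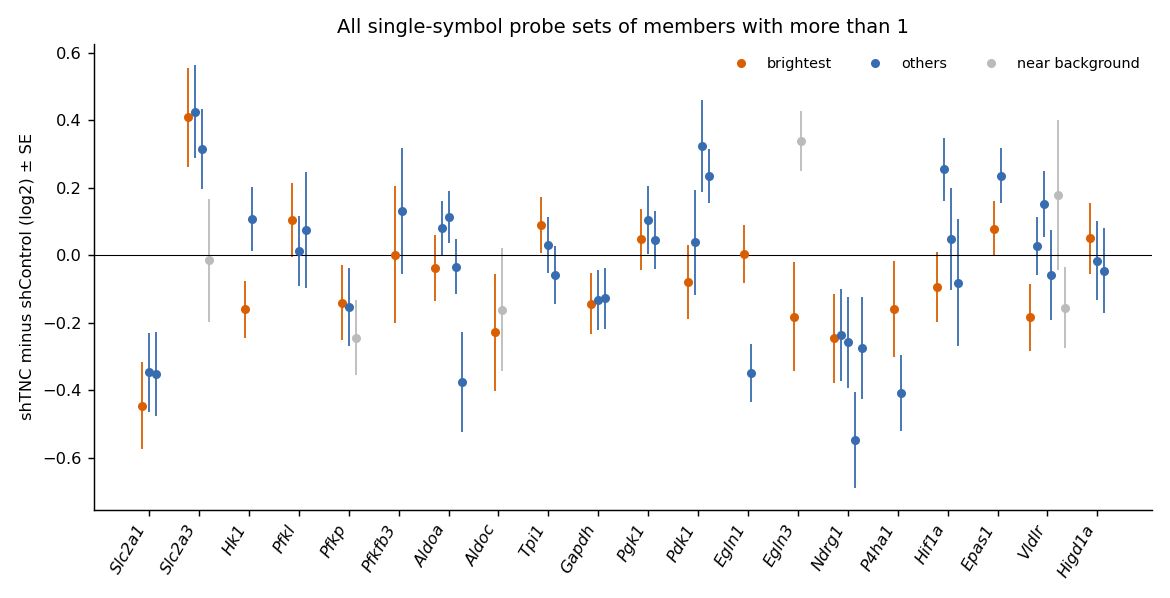
Difference between shTNC and shControl (log2 ± SE, y axis) for every single-symbol probe set of the 20 genes that had more than 1, with the brightest in orange, the others in blue and those near background in grey. The probe sets of Slc2a1 and of Ndrg1 are all below 0, and 8 genes have probe sets above background on both sides of 0.

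The list varied between the arrays of one group as well. The median deviation of the 33 genes from their own mean over the 6 arrays was 0.063, 0.016 and -0.047 in shControl and -0.020, -0.030 and -0.037 in shTNC. The range within shControl thus enclosed every shTNC array. Of the 33 genes, 9 were highest in shControl replicate 1, or 27.3%, where 16.3% of all genes were highest. In shControl replicate 2, 11 were highest, or 33.3%, beside 32.7% of all genes, and this array also stood apart from the other 5 on the first principal component of all probe sets. Only 1 gene, Aldoc, was highest in shControl replicate 3, beside 14.7% of all genes. That array instead held the lowest level of 9 of the 33 genes, beside 17.9% of all genes. Ndrg1, Pfkp, Hif1a and Pfkfb3 were among those highest in shControl replicate 1.

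**Figure D4:**
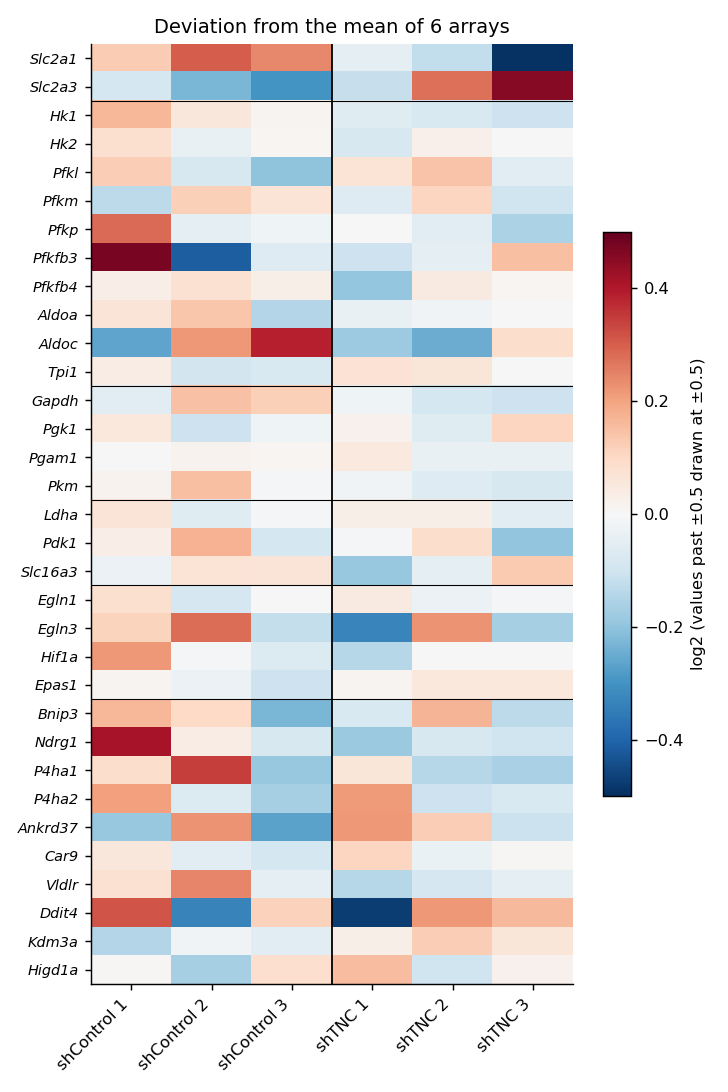
Deviation of each of the 33 genes from its mean over the 6 arrays (log2, colour, drawn at 0.5 where larger), with arrays as columns and genes as rows grouped by role. The rows of Slc2a1 and Slc2a3 oppose each other between the groups, and most other rows vary within a group as much as between them.

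The sort was checked with marker lists. The 12 endothelial markers were all above background, with a median difference of -0.027 and summed levels (log2 of the sum) of 17.13 to 17.20 in shControl and 17.14 to 17.15 in shTNC. Of 10 macrophage and monocyte markers, Itgam and Adgre1 were near background, and 8 were lower in shTNC, beside 10602 of all 18194 genes. The summed level of the 10 markers was 13.27 to 13.39 in shControl and 12.85 to 13.35 in shTNC. At an unadjusted p under 0.05, 3 of these 10 markers were lower, beside 7.12% of all genes. They were Mrc1 at -0.62 ± 0.14 and Cd14 at -0.32 ± 0.10, with groups that did not overlap, and Chil3 at -0.69 ± 0.21, with groups that did. Summed levels of other lists overlapped between the groups for neutrophils (9.94 to 10.20 and 9.82 to 10.12), with Elane and Mpo near background, and for epithelium (13.46 to 14.01 and 12.81 to 14.29). They overlapped too for platelets (10.80 to 11.35 and 10.92 to 11.17), fibroblasts (13.28 to 13.66 and 13.50 to 13.76) and pericytes and smooth muscle (12.24 to 12.27 and 12.25 to 12.62). Myh11, of the last list, was higher in shTNC by 0.50 ± 0.10 with groups that did not overlap. The measured markers of epithelium, platelets, fibroblasts and pericytes and smooth muscle were all above background. Sftpc had a mean level of 13.01, and Scgb1a1 ran from 6.84 to 12.04 within shControl. A sum follows its brightest probe sets, such as Lyz2 at a mean of 12.16 among the macrophage markers. Of 4 erythroid genes, Hba-a1 was near background, and the summed level was 11.32 to 11.65 and 11.62 to 11.67. Alas2 was higher by 0.52 ± 0.13 and Bpgm by 0.14 ± 0.10, with groups that did not overlap. Slc4a1 differed the other way, by -0.38 ± 0.21, with groups that overlapped. All 11 measured cell cycle genes were lower in shTNC, with a median of -0.73 and groups that did not overlap, where 12.4% of all genes were separate and lower. The part of these cells and of proliferation in the differences of Slc2a1 and Slc2a3 was not tested.

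Genes around the pathway were listed by role, with earlier results of these data known. Among 22 of 26 other genes of glycolysis and pyruvate handling, the median difference was 0.044, and an unadjusted p under 0.05 was reached by 1 lower and 1 higher gene, beside 7.12% and 4.54% of all genes. Of these, Slc16a1, a lactate transporter named after its values were seen, differed by 0.47 ± 0.17 near background. Pgam2, the muscle form of phosphoglycerate mutase, differed by -0.35 ± 0.13 with an adjusted p of 0.314, and Pgm2, a phosphoglucomutase, by -0.16 ± 0.09. The groups of both did not overlap, where 12.4% of all genes were separate and lower. Ldhb, the lactate dehydrogenase subunit that favours pyruvate, differed by 0.29 ± 0.16.

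Regulators of the HIF pathway had values for 16 of 16 genes and a median of 0.010, with 1 gene higher at an unadjusted p under 0.05, beside 4.54% of all genes. That gene was Cited2, which competes with HIF for its coactivator, with levels of 10.51, 10.81 and 10.91 in shControl and of 11.05, 11.18 and 11.02 in shTNC. All shTNC arrays were above all shControl arrays, and the difference was 0.34 ± 0.12 (SE) with an adjusted p of 0.308, beside 0.14 in a second probe set. Its unadjusted p missed 0.05 without shControl replicate 1, where the difference was 0.22, and without shTNC replicate 2, where it was 0.29. Cul2, a scaffold of the ligase that degrades HIF alpha subunits, differed by -0.21 ± 0.09 and Hif3a, a HIF alpha subunit that can restrain the pathway, by -0.18 ± 0.09. The groups of both did not overlap, where 12.4% of all genes were separate and lower. A second probe set of Cul2 had the opposite sign, at 0.070. Other Hif3a probe sets above background differed by -0.31 ± 0.17 and -0.36 ± 0.14, and those near background were lower in shTNC too.

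Of 35 further hypoxia targets 32 were measured, and 23 were lower and 9 higher in shTNC, beside 10602 lower and 7592 higher of all 18194 genes. The median of these targets was -0.055 against -0.030 for all genes. At an unadjusted p under 0.05, 3 were lower and 0 higher, where 7.12% of all genes were lower and 4.54% higher. The 3 were Adm, Pgf and Gys1, and Gys1 is counted again among the branch genes below. Adm, which encodes the vasodilator peptide adrenomedullin, had levels of 11.52, 11.69 and 10.81 in shControl and of 10.71, 10.91 and 10.75 in shTNC. Replicates 1 and 2 of shControl were high, while shControl replicate 3 lay among the shTNC arrays. The difference was -0.55 ± 0.21 (SE) with an adjusted p of 0.335, and a second probe set differed by -0.69 ± 0.25.

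Pgf, placental growth factor, a ligand of the VEGF family, had levels of 10.08, 9.90 and 9.25 in shControl and of 9.29, 9.29 and 9.13 in shTNC. Its 2 high arrays were the same as those of Adm, and the difference was -0.51 ± 0.20 with an adjusted p of 0.338. Vegfa and Angptl4, widely used reporters of hypoxia, differed by -0.026 ± 0.09 and -0.091 ± 0.34, with groups that overlapped. When single arrays were left out, the unadjusted p of Adm passed 0.05 in 2 of 6 fits and that of Pgf in 1 of 6. Leaving out shControl replicate 3 moved the differences to -0.82 for Adm and -0.76 for Pgf, while leaving out shControl replicate 2 gave -0.37 and -0.43.

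Branches that draw intermediates from glycolysis were measured in 16 of 17 genes, with a median of -0.021 and 2 genes lower at an unadjusted p under 0.05, beside 7.12% of all genes. Gfpt2, a form of the enzyme that opens the hexosamine pathway, had levels of 10.83, 10.32 and 9.97 in shControl and of 9.62, 9.82 and 9.69 in shTNC. The groups did not overlap, and the shControl arrays were more spread. The difference was -0.66 ± 0.20 (SE), or 1.58-fold lower, with an adjusted p of 0.269. It was the largest in size among the glycolysis and hypoxia genes measured here, each read through its brightest probe set. The unadjusted p stayed under 0.05 in 6 of 6 fits that left out an array. Without shControl replicate 1, the highest array, the difference was -0.43, smaller in size than the -0.49 of Slc2a1 in the same fit. Without shControl replicate 3 it was -0.86.

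Gys1, the glycogen synthase of muscle and most other tissues, had levels of 10.02, 9.82 and 9.87 in shControl and of 9.42, 9.59 and 9.68 in shTNC. The groups were separate, and the difference was -0.35 ± 0.10 with an adjusted p of 0.269 and -0.19 in a second probe set. Pgm3, another enzyme of the hexosamine pathway, differed by -0.24 ± 0.12. The enzymes of the pentose phosphate pathway Pgd, Tkt and Taldo1 differed by -0.084, 0.015 and -0.015.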

How the data were processed

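Total RNA of sorted lung ECs was hybridised to Affymetrix mouse genome arrays, with 1 array per sample. The authors normalised the raw files by RMA in Chipster, and the deposited values are log2 levels per probe set with no detection calls. Values of equal rank differed between arrays by no more than 0.0700, with none missing. An array held only 5773 to 6883 distinct values, many low ones being tied, so whether RMA alone gave them was not settled. The number of arrays limits the precision. Symbols came from the platform annotation: 34958 of 45101 probe sets carried 1 symbol, 932 several and 9211 none, and 67.2% lay above the level set by 44 olfactory receptor probe sets. Levels of different probe sets are not comparable.

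The test was limma 3.58.1 under R 4.3.3 (two-sided lmFit with eBayes, Benjamini-Hochberg adjusted over every probe set), which was tested on simulated data. Labels call the samples biological replicates, and p-values measure the spread between them. The genes, further lists and marker lists were chosen with earlier results of these data known, so lists are described by counts and medians with no test. Array values were given for genes of the main list whose groups did not overlap or with an unadjusted p under 0.05, and for a set of key genes. Up to 3 genes of the smallest p above background were named per further list, with array values for only some of them. Alternatives were quantile normalisation, median centring, a background filter, array weights, a robust eBayes fit with intensity trend, a replicate block, leaving out each array, the mean of a gene's probe sets and a probe set without an ambiguity suffix.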

Additional observations from a re-analysis of the deposited data

How the results depend on the processing

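No gene of the list passed an adjusted p of 0.05 under any of the alternatives, and the smallest adjusted p was 0.163. The count of genes lower at an unadjusted p under 0.05, 1 as reported, was 4 with an intensity trend and robust eBayes, 2 with array weights and 4 with the mean of each gene's probe sets. Without single arrays it ranged from 1 to 4, with 4 without shControl replicate 3, and 2 without shControl replicate 1 or shTNC replicate 2. The count of genes higher ranged from 0 to 1, with 0 without shControl replicate 3, shTNC replicate 2 or shTNC replicate 3, and the median difference from -0.064 to -0.0081. The shares over all genes were not counted under the alternatives. The counts of lower and higher genes there have no background beside them and are no result about the list. Slc2a1 ranged from -0.53 to -0.31 and kept an unadjusted p under 0.05 in 15 of 15 fits, and Slc2a3 from 0.28 to 0.57 in 11 of 15. Deviations from the group mean were correlated between the 2 arrays with the same replicate number, over 30287 probe sets above background. The correlations were -0.11, 0.038 and 0.14 for replicates 1 to 3. With 3 arrays per group they cannot settle whether the numbers mark a shared batch. With the replicate as a block the counts were 1 lower, 1 higher and 0 called, with a median of -0.037.

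Of 461 single values of the list's genes under alternatives, 426 kept their direction and 35, in 13 genes, reversed. With array weights, reversed values were 0.0060 for Pfkm, -0.11 for Pfkfb3, -0.013 for Ldha, -0.022 for Egln1 and -0.039 for P4ha2. With the mean of the probe sets they were 0.13 for Pdk1, -0.17 for Egln1, 0.032 for Hif1a and -0.0035 for Higd1a. With a probe set without a suffix they were 0.048 for Hif1a and 0.15 for Vldlr. Outside the list, Cul2 reversed to 0.070 with that probe set. Leaving out single arrays, the range was -0.11 to 0.011 for Pfkm, -0.20 to 0.24 for Pfkfb3, -0.12 to 0.023 for Aldoa, -0.026 to 0.038 for Ldha, -0.14 to 1.06e-05 for Pdk1, -0.14 to 0.053 for Bnip3, -0.037 to 0.045 for Egln1, -0.079 to 0.13 for P4ha2, -0.15 to 0.0085 for Slc16a3, -0.25 to 0.16 for Ddit4 and -0.020 to 0.11 for Higd1a. The cause of the reversals was not tested. With 3 arrays per group the median SE was 0.10, and probe sets near background bound no difference.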
